A study of Mus musculus with 12 samples.

Results

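The genes described are the mitochondrial ribosomal proteins: every gene of the expression table whose symbol is Mrps or Mrpl followed by a number and at most 1 letter. The rule found 78 of 18211 genes, 29 with a small subunit symbol (Mrps) and 49 with a large subunit symbol (Mrpl), and all 78 were among the 13563 genes abundant enough to be tested. Expression was measured by RNA-seq in 12 subcutaneous MC38 tumors, 3 in each of 4 groups. MC38 is a mouse colorectal adenocarcinoma cell line, grown here in female C57BL/6 mice aged 5 weeks at purchase and assigned to groups on day 7. The CK group received vehicle. The PB-020 group received the IGF-1R inhibitor PB-020 by mouth at 50 mg/kg per day in DMSO and corn oil. The anti-PD-1 group received the anti-PD-1 antibody by intraperitoneal injection at 200 μg per mouse, and the PB-020/anti-PD-1 group received both. All tumors share the cell line and the host strain, so no group is free of tumor, and the 3 tumors of a group were described as triplicate tissues.

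The mitochondrial ribosome makes the few proteins that are encoded in mitochondrial DNA, all of them core subunits of the respiratory chain and ATP synthase. Its small subunit binds and decodes the mRNA, and its large subunit joins amino acids and holds the exit tunnel. Its RNAs come from mitochondrial DNA, but every one of its proteins is encoded in the nucleus, made in the cytosol and imported. Many of these proteins descend from bacterial ribosomal proteins and others were added during the evolution of mitochondria. By a list of this ancestry, written after the values were seen, 45 members have a bacterial counterpart and 33 do not. Symbols do not always give the place in the ribosome: Mrps18a and Mrps30 sit in the large subunit, and Mrps36 is a subunit of the alpha-ketoglutarate dehydrogenase complex.

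The members changed little. Against CK, edgeR called 8 of them in PB-020/anti-PD-1 tumors, all raised (Mrps22, Mrpl42, Mrpl47, Mrpl1, Mrpl32, Mrps18c, Mrpl54 and Mrpl35), and none in PB-020 or anti-PD-1 tumors. The 8 are 10.3% of the members, beside 8.35% of all genes tested that were raised and 9.6% that were lowered. The largest change was 1.49-fold, for Mrpl42. The 8 are described gene by gene after the levels and the promoters.

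Each library held between 16545394 and 17217035 expected counts. The members took between 0.255% and 0.305% of them, and every member had at least 180 counts in every library. The coefficient of variation between tumors of 1 group had a median of 7.9% over the members, against 9.31% over all genes tested, and ran from 3.09% for Mrps30 to 15.6% for Mrps6. The anti-PD-1 tumor 1 stood apart, with 12 skeletal muscle markers summing to 1330 TPM against 23.4 to 131 in the other tumors, and 10 macrophage markers at 2720 TPM against 1370 to 1960. The 10 epithelial markers summed to only 4.58 to 7.68 TPM in the 12 tumors, with Krt18 at 0 in the CK tumors and Cdx2 at 0 in both groups given anti-PD-1, so the label of a colorectal tumor was not reflected in epithelial markers.

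The members spanned a 21.1-fold range of levels. TPM divides each count by the gene's effective length, so that genes can be compared. The mean TPM over the 12 tumors had a median of 63.4 over the members, 49.3 over the small subunit genes and 68.2 over the large subunit genes, against 19.4 over all genes tested. Members with a bacterial counterpart had a median of 71.0 TPM and those without one 53.5. The highest were Mrpl23, whose protein sits at the mouth of the exit tunnel, with 228.4 TPM, followed by Mrpl52 with 218.9, Mrpl30 with 204.3 and Mrpl42 with 191.8. The ranges of these 4 genes over the tumors overlapped. The highest small subunit gene was Mrps21, chosen for naming after its value was seen, with 186.0 TPM. The lowest 4 were Mrpl19 with 10.8 TPM, Mrps25 with 12.1, Mrpl17 with 13.3 and Mrpl57 with 15.3. These 4 genes have effective lengths of 2198 to 6564 bases, against 263 to 561 bases for the highest 4.

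**Figure D1:**
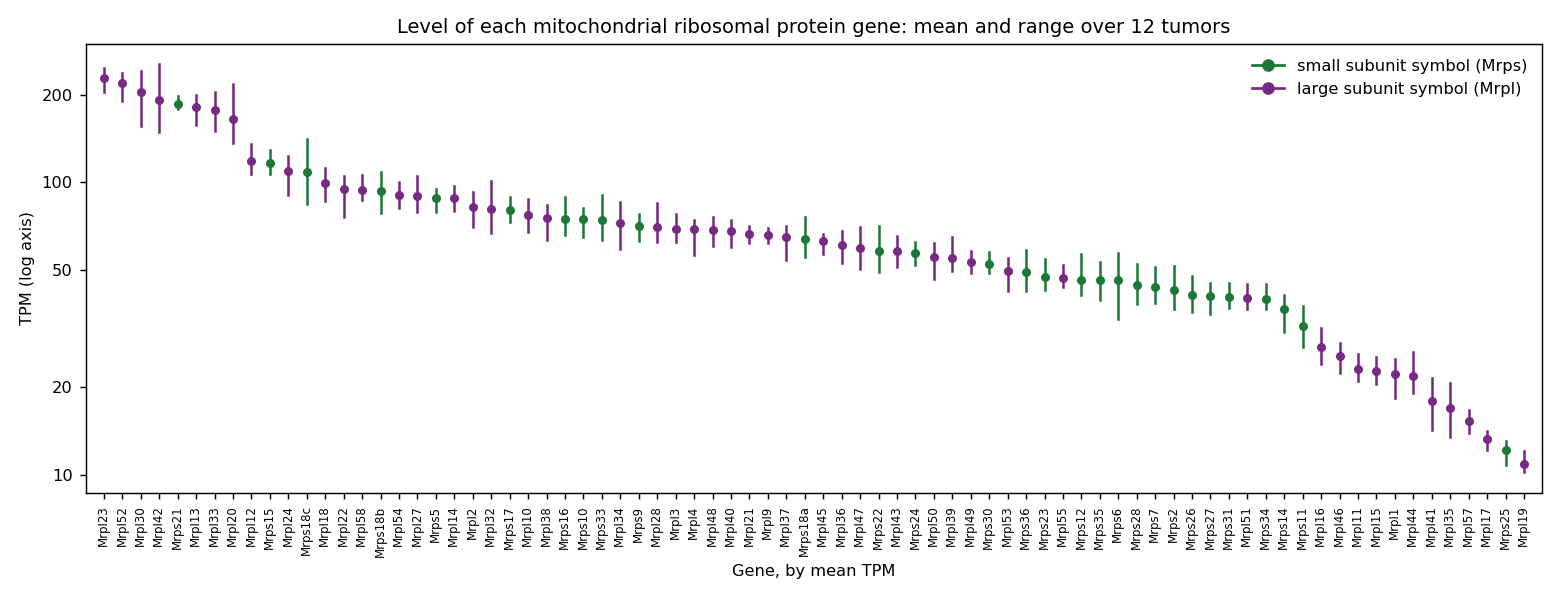
Level of each of the 78 mitochondrial ribosomal protein genes in TPM (vertical axis, log scale), in the order of their means over 12 tumors. Points are means and lines run from the lowest to the highest tumor, with small subunit genes in green and large subunit genes in purple; the means run from 228.4 for Mrpl23 to 10.8 for Mrpl19.

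By group, Mrpl23 was at 242.4 ± 3.2 TPM (SD, n = 3) in CK, 234.0 ± 21.7 with PB-020, 217.4 ± 4.1 with anti-PD-1, and 219.9 ± 14.6 with both drugs. Mrpl19 was at 10.9 ± 0.37 TPM in CK and 10.7 ± 0.48 in PB-020/anti-PD-1 tumors. Summed over the 78 members, TPM lay between 5337 in anti-PD-1 tumor 1 and 5840 in PB-020/anti-PD-1 tumor 2. The sum over small subunit genes ran from 1772 to 1854 and over large subunit genes from 3564 to 4036.

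The promoters of the 3 members with the smallest p in the combination, and of Mrpl32, which had the smallest p of the members in PB-020 against CK and in PB-020 given against not given, are of interest because nuclear respiratory factor 1 (NRF1), ETS family factors such as GABPA and the factor YY1 are known to act on genes of this class. RefSeq promoter windows of GRCm38.p6, from 250 bases before to 50 after the transcription start, were at hand for 69 of the 78 members. The ETS core CCGGAAG, on either strand, was present in 26 of the 69 (37.7%), against 9.93% of the windows of 27025 genes, tested here or not. All 69 members were tested, and no share was computed over the windows of tested genes alone. The NRF1 core GCGCATGC was present in 8 of 69 (11.6%), against 3.05% of all windows, and in 7 of the 43 large subunit but 1 of the 26 small subunit windows. The YY1 core AAGATGGCG was present in 8 of 69 (11.6%), against 1.64% of all. These are matches of letters and not measured binding. The 150 bases before the start follow for 4 of the 8 raised members, on the strand of the gene, with capitals for ETS and NRF1 matches.
Mrps22, chr9:98601680-98601829, minus strand: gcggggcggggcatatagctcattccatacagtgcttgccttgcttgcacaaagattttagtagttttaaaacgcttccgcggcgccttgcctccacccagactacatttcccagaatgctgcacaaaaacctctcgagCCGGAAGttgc
Mrpl42, chr10:95501950-95502099, minus strand: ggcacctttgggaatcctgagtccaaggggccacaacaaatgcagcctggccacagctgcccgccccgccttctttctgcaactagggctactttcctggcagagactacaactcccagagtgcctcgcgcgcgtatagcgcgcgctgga
Mrpl47, chr3:32736756-32736905, minus strand: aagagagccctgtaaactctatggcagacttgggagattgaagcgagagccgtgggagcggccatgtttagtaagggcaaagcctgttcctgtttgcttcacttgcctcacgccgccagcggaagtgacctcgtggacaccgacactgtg
Mrpl32, chr13:14613038-14613187, minus strand: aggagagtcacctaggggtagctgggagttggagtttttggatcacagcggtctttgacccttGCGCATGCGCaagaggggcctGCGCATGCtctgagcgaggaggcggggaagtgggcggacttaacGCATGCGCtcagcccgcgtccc

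The Mrps22 stretch holds an ETS match close to the start, at position -11. The Mrpl32 stretch holds NRF1 matches at 3 places, the first of which reads as a match on both strands. The stretches of Mrpl42 and Mrpl47 hold none of the 3 cores, although the Mrpl42 window has a YY1 core shortly after the start. Of the 8 raised members, 7 had a window, and the first listed was read for each. That of Mrps18c held an ETS match and that of Mrpl35 a YY1 core, while those of Mrpl1 and Mrpl47 held none of the 3 cores. Whether raised members hold more or fewer matches than other members was not tested. A start site on the opposite strand, at most 1000 bases upstream or 100 bases inside, was annotated in GENCODE for 19 of the 78 members (24.4%). The share was 7.23% over all coding genes, tested here or not. Among the 8 raised members these neighbours were Psma2 for Mrpl32, Helq for Mrps18c and Apba3 for Mrpl54.

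The first question was what the combination changed relative to vehicle. In PB-020/anti-PD-1 against CK, edgeR's quasi-likelihood test called 8 members raised and 0 lowered at a Benjamini-Hochberg adjusted p under 0.05. Of all genes tested, 17.9% were called in either direction. The share of members raised was near that of all genes, and none was lowered. The share raised was also near that of the 3374 shortest genes, with effective lengths up to 1685 bases, of which 10.7% were raised. By the unadjusted p, 13 members were higher (16.7%, beside 16.5% of all genes) and 1 was lower (1.28%, beside 17.4%). DESeq2 called 8 members as well, beside 2789 of all genes, and limma on log2(FPKM + 1) 7, beside 2458. The count moved with single libraries, and so did the count over all genes, which was 2434 with all libraries. Without CK tumor 2 there were 2 members and 864 genes called, without CK tumor 3 there were 4 and 1577, without combination tumor 1 there were 2 and 1085, and without combination tumor 2 there were 1 and 1160. Without combination tumor 3 there were 11 members and 2045 genes.

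Changes are given as TMM-scaled CPM, the counts of a gene brought to one library size, which compare 1 gene between tumors but not genes with each other. Mrps22 (NCBI gene 64655, chr9:98588730-98601679, GRCm38.p6) encodes a small subunit protein with no bacterial counterpart. Its CPM was 31.3, 28.3 and 29.4 in the CK tumors, 32.1, 36.1 and 36.3 with PB-020, 28.8, 34.6 and 39.5 with anti-PD-1, and 42.5, 46.3 and 39.2 with both drugs. The 3 combination tumors were above every CK and PB-020 tumor and overlapped the anti-PD-1 tumors only at the tumor with 39.5. The log2 change against CK was 0.52 (SE 0.11, 1.44-fold, adjusted p = 0.0072, edgeR). Mrps22 remained called in all 23 alternative computations, which include the 12 that each left out 1 library.

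Mrpl42 (gene 67270, chr10:95480805-95501949), a large subunit protein with no bacterial counterpart, had the largest change. Its CPM was 52, 45.3 and 52.3 in CK, 63.5, 67.8 and 57.1 with PB-020, 48.1, 57.3 and 67.9 with anti-PD-1, and 64.2, 87.8 and 70.3 with both drugs. All PB-020 and all combination tumors were above the CK tumors, while the anti-PD-1 tumors overlapped them. The log2 change in the combination was 0.57 (SE 0.13, adjusted p = 0.014, edgeR). Mrpl42 was called in 10 of 12 cases with 1 library left out and kept its sign in all 23 alternative computations, with a change of at least 0.44 and an adjusted p of at most 0.07 (edgeR, DESeq2 or limma). Without PB-020/anti-PD-1 tumor 2, the highest, Mrps22 was the only member called. Tumor 2 was also the one with the highest median levels of cytosolic ribosomal protein genes and of short genes.

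Mrpl47 (gene 74600, chr3:32727497-32736755) is the counterpart of a bacterial protein beside the exit tunnel. Its CPM was 22.1, 19.7 and 20.4 in CK, 23.9, 27.3 and 24.2 with PB-020, 21.6, 24.8 and 25.8 with anti-PD-1, and 29, 31.3 and 24.1 with both drugs. The combination tumors were above CK and overlapped the other groups. The log2 change was 0.44 (SE 0.11, adjusted p = 0.015, edgeR). Its exons share bases with Ndufb5 and Actl6a on the opposite strand, and since the strandedness of the libraries is not given in the sources used here, reads of these genes may not be told apart.

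Mrpl1 (gene 94061, chr5:96209498-96266727) belongs to the mobile stalk by which spent tRNAs leave the ribosome. Its CPM was 24.1, 25.5 and 24 in CK, 29, 29.2 and 27.9 with PB-020, 26.6, 28.5 and 30 with anti-PD-1, and 31.6, 34.5 and 27.7 with both drugs. Every treated tumor was above every CK tumor, the 3 treated groups overlapped each other, and Mrpl1 had the smallest p of all members in anti-PD-1 against CK. The log2 change in the combination was 0.35 (SE 0.086, adjusted p = 0.016, edgeR). With an effective length of 2253 bases it is also one of the longer members.

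Mrpl32 (gene 75398, chr13:14610301-14613037), whose precursor is cleaved by the mitochondrial m-AAA protease before assembly, was higher in both groups that received PB-020. Its CPM was 25.5, 22.6 and 24.5 in CK, 32.8, 31.6 and 29.5 with PB-020, 21.7, 26 and 29.4 with anti-PD-1, and 33.1, 38.4 and 28 with both drugs. The PB-020 tumors were above all CK and anti-PD-1 tumors, and the combination tumors were above CK. The log2 change in the combination was 0.46 (SE 0.12, adjusted p = 0.022, edgeR). In PB-020 alone it was 0.37 (SE 0.12, unadjusted p = 0.0085, edgeR), with an adjusted p of 0.87.

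The last 3 calls were less stable. Mrps18c (gene 68735, chr5:100798759-100804467), 1 of 3 paralogs related to the same bacterial protein, was at 20.2, 18.2 and 20.7 CPM in CK, 21, 21 and 26 with PB-020, 15.9, 19.5 and 19.5 with anti-PD-1, and 24.2, 30.6 and 23.9 with both drugs. The combination tumors exceeded all CK and anti-PD-1 tumors, with a log2 change against CK of 0.41 (SE 0.12, adjusted p = 0.035, edgeR). Mrpl54 (gene 66047, chr10:81264722-81266926), which has no bacterial counterpart, was at 21.7, 19.2 and 20.6 CPM in CK, 24.6, 21.9 and 23.3 with PB-020, 20.3, 21.4 and 22.6 with anti-PD-1, and 24.7, 26 and 23.4 with both drugs, a log2 change of 0.27 (SE 0.084, adjusted p = 0.042, edgeR). Mrpl35 (gene 66223, chr6:71812997-71823784), the longest of the 8 with 3546 bases, was at 31, 27.6 and 30.6 CPM in CK, 35.3, 32.4 and 39 with PB-020, 24.7, 33.3 and 37.2 with anti-PD-1, and 37.5, 44.6 and 36.8 with both drugs, a log2 change of 0.41 (SE 0.13, adjusted p = 0.045, edgeR). All 3 genes were separated from CK in the PB-020 tumors too. With 1 library left out in turn, Mrps18c was called in 7 of 12 cases, Mrpl54 in 4 and Mrpl35 in 2.

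**Figure D2:**
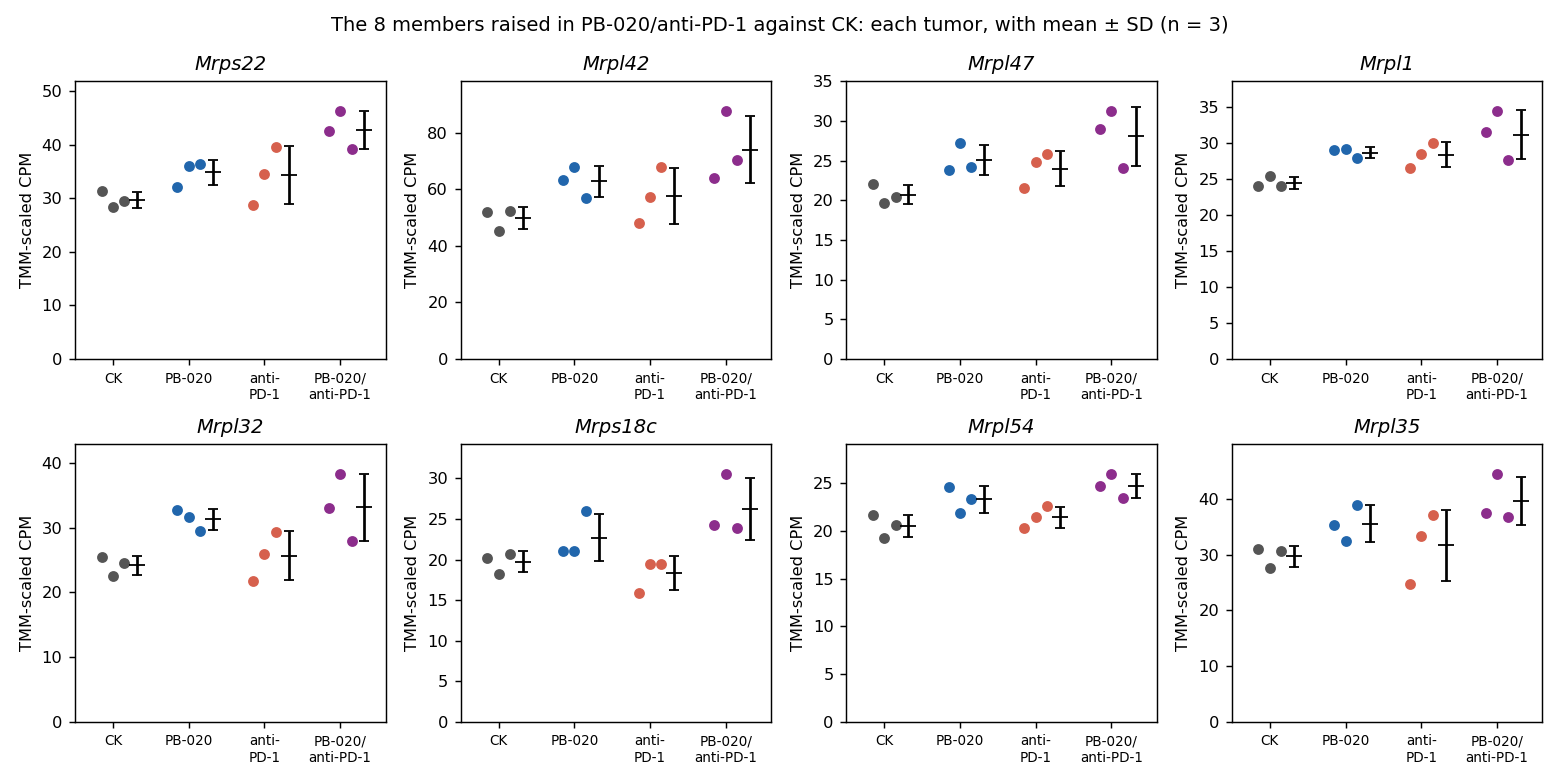
TMM-scaled CPM (vertical axes from 0) of the 8 members raised in PB-020/anti-PD-1 against CK, in the 4 groups on the horizontal axis. Each point is a tumor, in the order of the replicate numbers, and the bar beside it is the mean ± SD of 3 tumors; the 3 combination tumors lie above the 3 CK tumors in every panel, and the second combination tumor is the highest in each.

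The 8 raised members were 2 of 29 small subunit and 6 of 49 large subunit genes, and 5 of the 45 with and 3 of the 33 without a bacterial counterpart. Groups did not overlap for 15 members higher in the combination than in CK (19.2%, beside 19.6% of all genes tested) and 7 lower (beside 21.2% of all genes). The lower ones included Mrpl4, whose bacterial counterpart lines the exit tunnel. Its CPM was 47.8, 46 and 45.5 in CK, 47.5, 45.6 and 47.6 with PB-020, 43.5, 46 and 49.3 with anti-PD-1, and 37.1, 39.8 and 44.5 with both drugs. The combination tumors were below all CK and PB-020 tumors, and the log2 change against CK was -0.20 (SE 0.077, adjusted p = 0.089, edgeR).

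Mrps18a, Mrps18b, Mrps30, Mrps36 and Mrpl12 were not called against CK by edgeR. The paralogs of Mrps18c had log2 changes in the combination of 0.06 (SE 0.098, Mrps18a) and -0.07 (SE 0.077, Mrps18b). Mrps30, with the smallest spread of all members, was at 40, 42.2 and 38.9 CPM in CK and at 45.3, 45.3 and 45 in PB-020/anti-PD-1, where all 3 tumors lay above CK (log2 change 0.16, SE 0.064, adjusted p = 0.089, edgeR). Mrpl12, which forms a stalk of the large subunit and also binds the mitochondrial RNA polymerase, had a log2 change of 0.19 (SE 0.099). Mrps36 had a log2 change of -0.05 (SE 0.1), and reads of its 3 pseudogene copies may have been counted with it. Mrpl23 and Mrpl48 have a named pseudogene each.

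**Figure D3:**
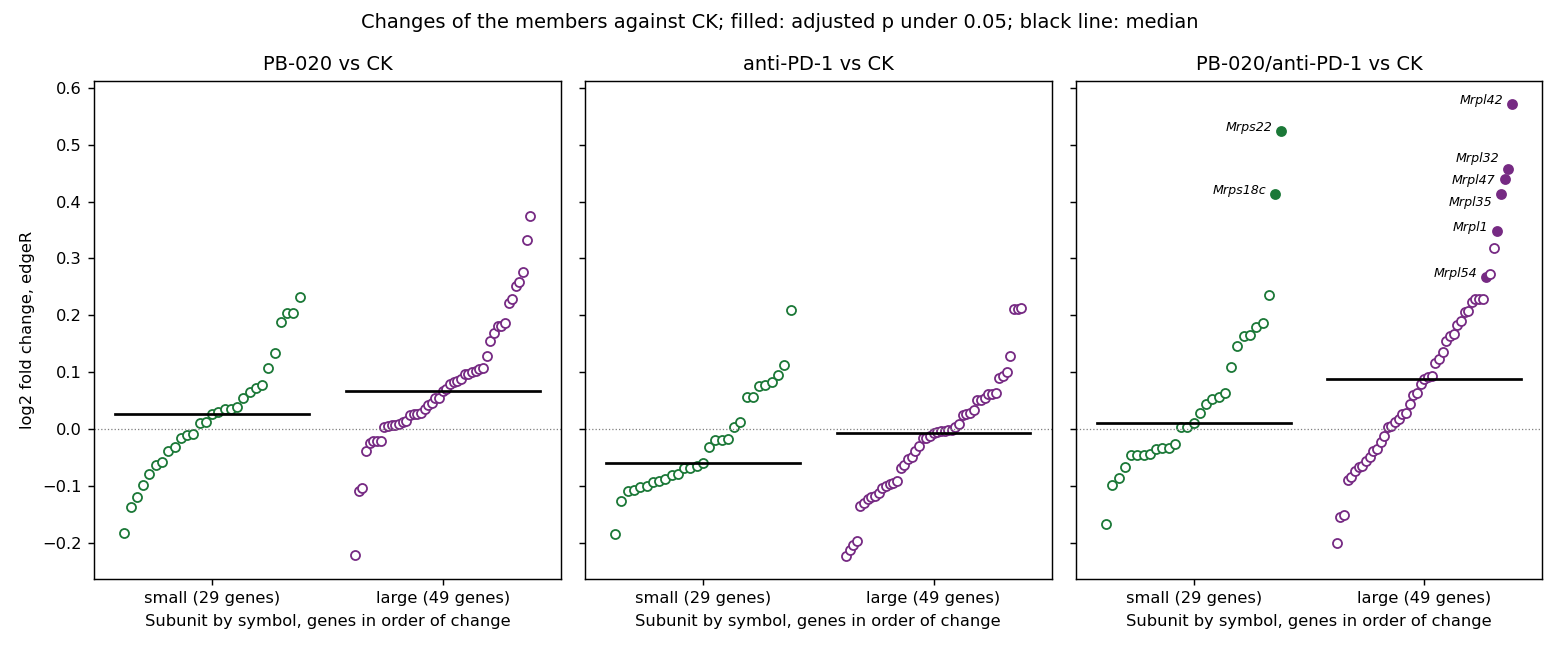
Log2 fold changes (vertical axis, edgeR) of the 29 small and 49 large subunit genes against CK in each treated group, ordered by size within a subunit. Filled points passed an adjusted p of 0.05 (8 genes, all in PB-020/anti-PD-1), and black lines are medians, which lie between -0.06 and 0.089.

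The next question was what each drug did alone. In PB-020 against CK, edgeR called 0 members, as did DESeq2 and limma, and 0% of all genes tested were called. By the unadjusted p, 7 members were higher (8.97%, beside 3.12% of all genes), all of them large subunit genes, and 2 were lower (2.56%, beside 2.34%). The 3 smallest p belonged to Mrpl32, Mrpl1 and Mrpl47, with log2 changes of 0.37, 0.23 and 0.28. In anti-PD-1 against CK, edgeR called 0 members, as did DESeq2 and limma, beside 8.26% of all genes (1120). That count over all genes fell to 3 of 13255 with only these groups fitted. It was 137 without CK tumor 2, 238 without anti-PD-1 tumor 3 and 1905 without anti-PD-1 tumor 2. By the unadjusted p, 1 member was higher (1.28%, beside 13.6% of all genes) and 4 were lower (5.13%, beside 13% of all genes). The member that was higher is Mrpl1, with a log2 change of 0.21 (SE 0.086, adjusted p = 0.14, edgeR). Mrpl2, counterpart of a bacterial protein close to the catalytic center, was at 43.8, 43.4 and 44.6 CPM in CK and 33.6, 40.9 and 40 in anti-PD-1, all below CK (log2 change -0.20, SE 0.085, adjusted p = 0.14, edgeR). Mrpl16 was at 17.6, 16.5 and 14.6 CPM in CK and 14, 13.3 and 14.5 in anti-PD-1, also without overlap (log2 change -0.22, SE 0.1, adjusted p = 0.18, edgeR).

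The combination was then set against each single treatment. Against anti-PD-1, edgeR called 0 members, as did DESeq2 and limma, and 0% of all genes, while by the unadjusted p 14 members were higher (17.9%, beside 4.45% of all genes) and 1 was lower (1.28%, beside 2.81%). Anti-PD-1 tumor 1, with its muscle transcripts, had the lowest median of the members, and all 12 muscle markers were lower in the combination by the unadjusted p, with a median log2 difference of -3.7. Without that tumor 4 members were higher (5.13%, beside 5.15% of all genes) and 1 was lower (beside 2.76%). With each library's trend with gene length removed, described further on, 9 were higher (11.5%, beside 3.92%) and 4 lower (5.13%, beside 2.85%). The smallest p was that of Mrps18c, with a log2 difference of 0.52 (SE 0.12, unadjusted p = 0.00098, adjusted p = 0.66, edgeR). Mrpl20, which in bacteria is needed early in large subunit assembly, was at 37.8, 44.8 and 46.3 CPM in anti-PD-1 and 53.9, 69.5 and 48.3 in PB-020/anti-PD-1, a log2 difference of 0.41 (SE 0.13). Mrpl53 was at 10.5, 11.8 and 12.4 CPM in anti-PD-1 and 14.7, 15.6 and 13.5 in PB-020/anti-PD-1, a log2 difference of 0.34 (SE 0.11). Neither of the pair overlapped between these groups, and both adjusted p values were 0.66 (edgeR). Against PB-020, edgeR called 0 members, as did DESeq2 and limma, beside 3.35% of all genes (455). The count over all genes was 0 without combination tumor 1, 2 without combination tumor 2 and 1 without PB-020 tumor 1. Without anti-PD-1 tumor 1 it was 1269. By the unadjusted p, 1 member was higher and 1 lower (1.28% each, beside 10.2% and 12.3% of all genes). The first is Mrps22 (log2 difference 0.29, SE 0.11, adjusted p = 0.13, edgeR) and the second Mrpl4 (-0.21, SE 0.077, adjusted p = 0.13, edgeR). Mrpl42 followed with 0.24 (SE 0.13).

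With the 4 groups read as a design of 2 drugs, each given or not, the 6 tumors that received anti-PD-1 were set against the other 6. In that comparison 1 member was called by edgeR, Mrps22, raised by 0.25 on the log2 scale (SE 0.076, adjusted p = 0.03), beside 24.2% of all genes called. The next were Mrpl2 at -0.17 (SE 0.06, adjusted p = 0.058, edgeR) and Mrpl1 at 0.17 (SE 0.061, adjusted p = 0.061, edgeR). The call of Mrps22 was lost with any of 6 single libraries left out: CK 2, CK 3, PB-020 1, anti-PD-1 3, PB-020/anti-PD-1 1 or PB-020/anti-PD-1 2, each leaving 0 members called. For PB-020 given against not given, edgeR and limma called 0 members, beside 0% of all genes by edgeR. DESeq2 called 1 member (Mrpl32), beside 49 of 13563 genes. By the unadjusted p, 18 members were higher (23.1%, beside 6.55% of all genes), 4 small and 14 large subunit genes, and 0 were lower (beside 4.32%). Without anti-PD-1 tumor 1 there were 13 higher (16.7%, beside 6.7%) and 0 lower (beside 4.5%). Mrpl32 led with 0.37 (SE 0.086, unadjusted p = 0.00076, adjusted p = 0.31, edgeR), followed by Mrps18c with 0.36 (SE 0.088) and Mrps22 with 0.27 (SE 0.076). For the interaction of the drugs, 0 members passed the adjusted or the unadjusted threshold by edgeR, 0 the adjusted one by DESeq2 and limma, and 0% of all genes were called. The 3 smallest p were those of Mrps7 (0.21, SE 0.1), Mrpl53 (0.31, SE 0.15) and Mrpl44 (0.26, SE 0.13).

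Small and large subunit genes differed little as groups. Against CK, the median log2 change of small subunit genes was 0.03 with PB-020, -0.06 with anti-PD-1 and 0.01 with both drugs, and that of large subunit genes 0.07, -0.0058 and 0.09. The 3 comparisons share the CK tumors. Small minus large was -0.04, -0.05 and -0.08. The same difference of medians within a tumor had a pooled SD of 0.04 between tumors of a group. In the combination it was -0.07 in tumor 1, -0.15 in tumor 2 and 0.01 in tumor 3, and in the CK tumors it was -0.02, 0.0056 and -0.0046. Tumor 3 was thus above the CK tumors and the other pair below. Without combination tumor 2 the difference of -0.08 became -0.02, and without CK tumor 2 it became -0.0082, so that 1 library decided its size.

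Whether the members vary together was examined per tumor. Relative to the CK mean, the median of the 78 members on the log2 scale was 0.06, -0.07 and -0.0076 in the CK tumors, 0.09, 0.0022 and 0.09 in PB-020, -0.14, -0.0057 and 0.07 in anti-PD-1, and 0.04, 0.12 and 0.01 in PB-020/anti-PD-1. The lowest was anti-PD-1 tumor 1, the tumor with muscle transcripts, and the highest PB-020/anti-PD-1 tumor 2, and the 4 groups overlapped. The 80 cytosolic ribosomal protein genes, which form the ribosome outside mitochondria, were also lowest (-0.36) and highest (0.31) in these tumors. So were the 79 nuclear genes for oxidative phosphorylation subunits (-0.15 and 0.21) and the 3374 shortest genes (-0.08 and 0.12), while the 3374 longest, of at least 4093 bases, went the other way (0.05 and -0.07).

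**Figure D4:**
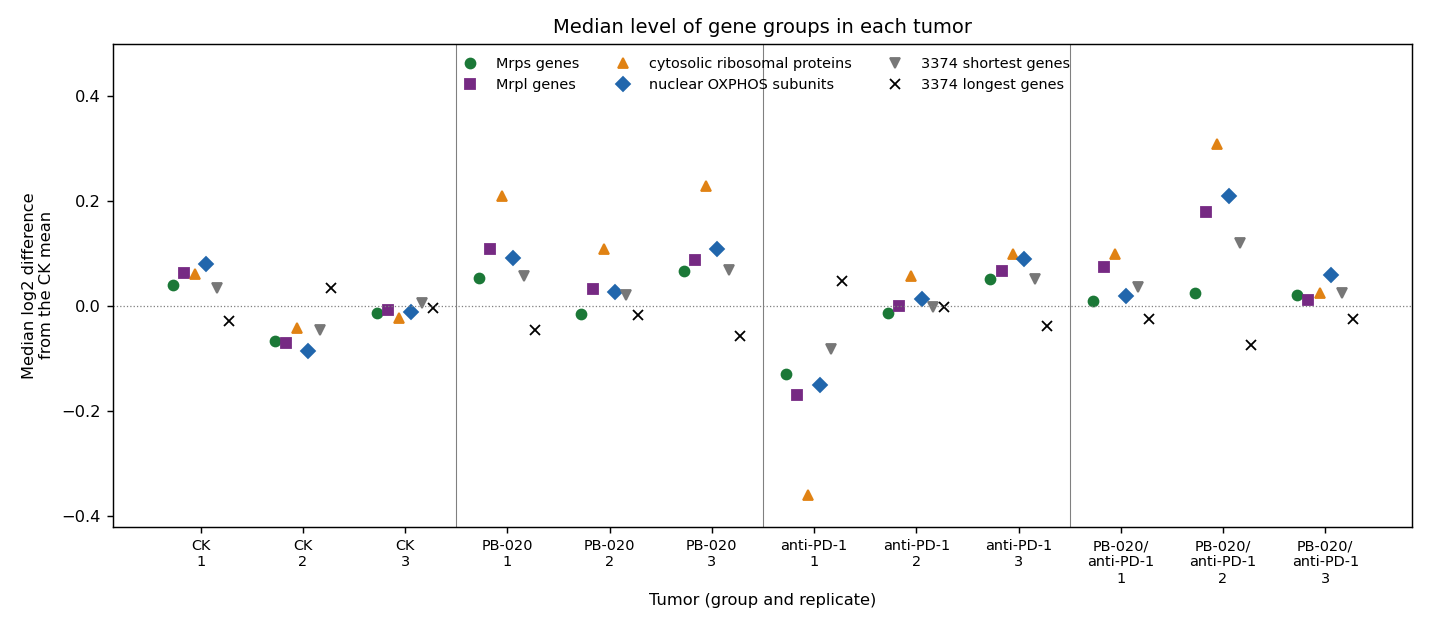
Median log2 difference from the CK mean (vertical axis) in each of the 12 tumors (horizontal axis, group and replicate) for the Mrps genes, the Mrpl genes, 2 other gene groups and the 3374 shortest and 3374 longest genes by effective length. In anti-PD-1 tumor 1 the Mrps and the Mrpl genes are both at their lowest (-0.13 and -0.17). In PB-020/anti-PD-1 tumor 2 the Mrpl genes are at their highest (0.18). The Mrps genes are at 0.026 there, below their 0.067 in PB-020 tumor 3. Cytosolic ribosomal proteins are at -0.36 and 0.31 in anti-PD-1 tumor 1 and PB-020/anti-PD-1 tumor 2, with the longest genes on the other side of 0.

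The members are short genes. Their effective length, taken from the deposited counts and FPKM, had a median of 903 bases (900 for small, 906 for large subunit genes) against 2702 bases for all genes tested, and 65 of the 78 were among the 3374 shortest. The median log2 change of the members in the combination, 0.06, equalled that of the 3374 shortest genes, 0.06, and the 3374 longest were at -0.04. In PB-020 the medians were 0.04, 0.04 and -0.05 in the same order. Among the 78 members themselves, log2 effective length and change had a Pearson correlation of -0.11 in the combination and -0.026 in PB-020. Over all comparisons it lay between -0.29 (interaction) and 0.19 (anti-PD-1 against CK). After group means were removed, pairs of members had a median Pearson correlation of 0.27 over the 12 tumors (0.13 among small, 0.35 among large subunit genes). For members with cytosolic ribosomal protein genes it was 0.48, with nuclear oxidative phosphorylation genes 0.34, and with the other genes tested -0.013. All these values share the same libraries. When the trend of each library with gene length was removed, an alternative chosen after the data were seen, the median correlation between members became 0.015, and the median change of the members in the combination -0.01. The removal takes out any shift that the members share with other short genes, so both values follow in part from the removal itself. In that computation edgeR called 6 members raised (7.69%, beside 9.3% of all genes) and Mrpl4 lowered (-0.24, adjusted p = 0.036), beside 9.76% of all genes lowered. Mrps18c (adjusted p = 0.054, edgeR) and Mrpl54 (adjusted p = 0.21, edgeR) were no longer called. For PB-020 given against not given, 12 members were then higher by the unadjusted p (15.4%, beside 5.95% of all genes) and 5 lower (6.41%, beside 3.82%). The part of gene length in the results was not tested.

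**Figure D5:**
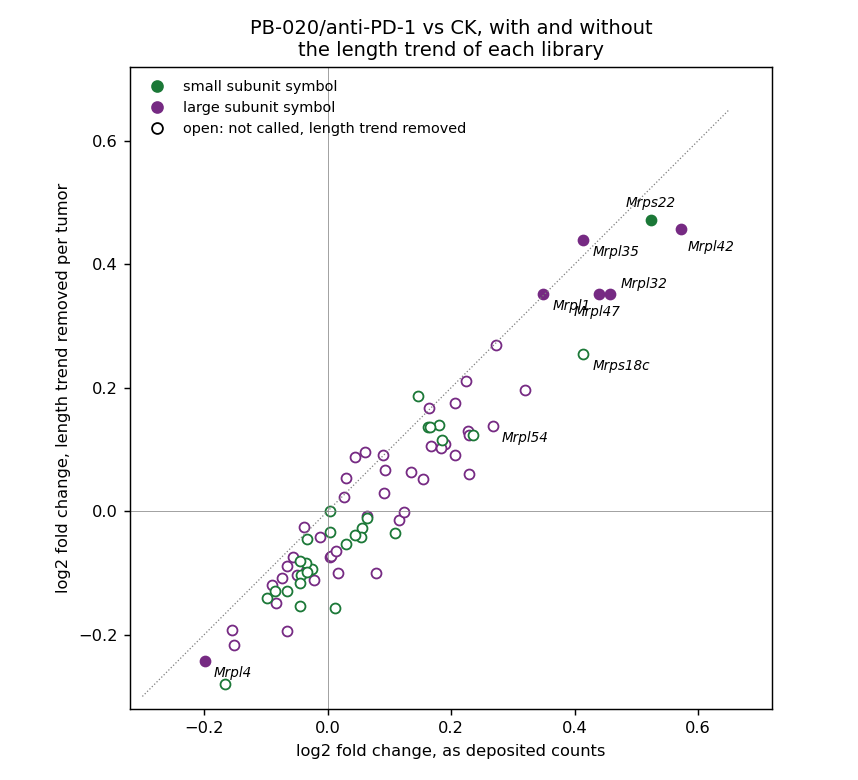
Log2 fold changes of the 78 members in PB-020/anti-PD-1 against CK, from the deposited counts (horizontal axis) and after removal of each library's trend with gene length (vertical axis). The dotted line marks equal values, filled points are called on the vertical axis, and named points are called on either; Mrps18c and Mrpl54 are open, and Mrpl4 is filled at -0.24.

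Other genes of mitochondrial translation were taken from lists. In the combination against CK, 8.35% of all genes tested were raised and 9.6% lowered. Of 5 mitoribosome proteins with other symbols, 2 were raised in the combination against CK and 0 lowered: Ptcd3, a small subunit protein, by 0.30 on the log2 scale (SE 0.072, adjusted p = 0.013, edgeR), and Chchd1, also of the small subunit, by 0.62 (SE 0.18, adjusted p = 0.035, edgeR). Of 30 assembly and rRNA factors, 1 was raised (Fastkd2, 0.35) and 2 were lowered (Dhx30, -0.21, a helicase, and Nsun4, -0.36, an rRNA methyltransferase). Of 17 translation factors, 3 were raised and 1 was lowered. The raised ones were Lrpprc (0.23), which stabilizes mitochondrial mRNAs, the elongation factor Tsfm (0.36) and the recycling factor Mrrf (0.38). The lowered one was Oxa1l (-0.21), the insertase that receives new proteins at the inner membrane. Of 20 mitochondrial tRNA synthetases, 0 were raised and 2 lowered, Fars2 (-0.40) and Iars2 (-0.27). Of 15 regulators of mitochondrial transcription and biogenesis, edgeR called 0 in either direction, and 1 was higher by the unadjusted p.

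Nuclear oxidative phosphorylation subunits work with the products of the mitochondrial ribosome. Of 79 tested, 13 were raised and 2 lowered in the combination (beside 8.35% and 9.6% of all genes). The raised ones with the smallest p were Cox7b (0.77, SE 0.13), Uqcrb (0.44, SE 0.099) and Cox6c (0.57, SE 0.13). The lowered ones were the complex I subunits Ndufa10 (-0.33, SE 0.064) and Ndufv1 (-0.34, SE 0.084). Of 13 subunits encoded in mitochondrial DNA, 0 were found in the expression table under the symbols searched, so they were not analysed here. Of 80 cytosolic ribosomal protein genes, 5 were raised and 0 lowered, among them Rps4x (0.53), Rpl36a (0.72) and Rps27l (0.48). In PB-020 given against not given, 39 of these 80 were higher by the unadjusted p and 0 lower. Of all genes, 6.55% were higher and 4.32% lower. For that comparison edgeR called 0 of the 80. Their median effective length was 568 bases, and that of the oxidative phosphorylation genes 532.

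Marker genes of other cell types also differed between the tumors. Beside the counts that follow, 8.35% of all genes tested were raised and 9.6% lowered in the combination against CK. Of 14 T cell markers 12 were raised in the combination, and their sum was 30.1 to 40 TPM in CK and 76.5 to 116 in PB-020/anti-PD-1. Of 14 proliferation genes 8 were raised, with sums of 1870 to 2080 and 2280 to 2480 TPM. Fibroblast markers summed to 3450 to 4630 TPM in CK and 1650 to 2310 in the combination. Of these 10 genes 4 were lowered, 2 were higher by the unadjusted p, and the median log2 change was 0.06. Erythroid markers summed to 1220 to 2760 TPM in CK and 224 to 305 in the combination, with 5 of 5 lowered. Cytotoxic lymphocyte markers had 5 of 10 raised, macrophage, endothelial and muscle markers none in either direction by edgeR, and of the epithelial markers 1 was tested and not called. In bulk tumor RNA a change in the cells present and a change of RNA per cell cannot be told apart, and the part of these cells in the changes of the 8 members was not tested. Igf1r itself, the target of PB-020, was at 117 to 134 CPM in CK and 111 to 121 in PB-020/anti-PD-1 tumors.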

How the data were processed

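RNA from 12 MC38 tumors (4 groups of 3) was sequenced by the authors as paired reads on an Illumina HiSeq X instrument. The methods name Bowtie2 and RSEM and give mm10 or hg19 as the reference, and the submitters' processing notes name HISAT, Bowtie2 and GRCm38.p6. Versions and strandedness are not given in the sources used here. The authors deposited RSEM expected counts per gene and tumor, not normalized and whole in 91.9% of the members' values. The deposited FPKM divide these by effective length and library total, and the deposited TPM were scaled by the authors to one sum per library. The authors' 12 columns of group averages were not used. Groups and replicate numbers came from the sample labels, doses and days from the methods.

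Expected counts were rounded to whole numbers, filtered with filterByExpr (minimum count 10), scaled by TMM and fitted with edgeR 4.0.16 (quasi-likelihood, robust, 4 group means, 12 libraries) in R 4.3.3. Two-sided p values were corrected by the Benjamini-Hochberg method across the 13563 genes that passed. The p values set differences of group means against the spread between tumors within groups, estimated over all 12 libraries together. A group with an outlying tumor was therefore not judged by its own spread alone. Depth was 16545394 to 17217035 expected counts per library. Intervals and errors do not cover errors of alignment. Alternatives were DESeq2 1.42.0, limma 3.58.1 on log2 FPKM with a pseudocount of 1 or 0.1, other filters and scalings, a fit without the uninvolved groups, a block for the replicate number, subunits by place in the ribosome, and each library left out. Added after seeing the data were removal of a loess trend (span 0.5) with length from each library, and omission of 2 libraries together. The computation was tested on simulated data.

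Members were named if called in PB-020/anti-PD-1 against CK, if among the 3 smallest p of another comparison, if among the 4 highest or lowest mean TPM, or if among Mrps18a, Mrps18b, Mrps18c, Mrps30 and Mrps36, chosen because symbol and place may differ, and Mrpl12. Of other lists, up to 3 called genes in each direction with the smallest p were named. The members and lists were chosen with earlier results of these data known. Promoters were RefSeq windows, gene positions RefSeq GRCm38.p6 (78 of 78 matched by gene number), and exon overlaps from GENCODE M21. Exons of 23 of the 78 members share bases with another coding gene.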

Additional observations from a re-analysis of the deposited data

Results flagged for a closer look

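For 7 members the effect of a drug given alone and its effect on top of the other drug went in opposite directions. This held in every tumor, on log2 CPM relative to the mean of the reference group. The share of all genes tested that met the same rule was not computed, so 7 cannot be called many or few. The opposition of directions was not tested as such, and edgeR's interaction term gave adjusted p values of 1 for all 7. For PB-020, the second effect minus the first was 0.22 for Mrpl14 (interaction unadjusted p = 0.13, edgeR), 0.28 for Mrpl16 (0.062) and -0.19 for Mrpl36 (0.11). For anti-PD-1 it was -0.19 for Mrpl36 (0.11), 0.26 for Mrpl44 (0.061), 0.32 for Mrps18c (0.094), 0.2 for Mrps35 (0.14) and 0.21 for Mrps7 (0.06). Mrps18c, for example, was lower by 0.11 in anti-PD-1 than in CK and higher by 0.21 in the combination than in PB-020.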

How the results depend on the processing

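Under other computations, 342 values of the main results kept their direction and side of the threshold, 10 became weaker, 12 stronger, 3 moved by more than the spread between tumors, and 0 reversed. Leaving out 1 library in turn, the members called in PB-020/anti-PD-1 against CK numbered 1 to 11 (8 with all): 2 without CK 2, 4 without CK 3, 2 without combination tumor 1 and 1 without combination tumor 2, where 864, 1577, 1085 and 1160 of all genes were called against 2434 with all. Those for anti-PD-1 given against not given numbered 0 to 5 (1 with all), while 2086 to 3690 of all genes were called (3279 with all). Those for the combination against PB-020 numbered 0 to 1 (0 with all), while 0 to 1269 of all genes were called (455 with all). Small minus large in the combination ranged from -0.1 to -0.0082 and was -0.02 without both PB-020/anti-PD-1 tumor 2 and anti-PD-1 tumor 1. For anti-PD-1 given, limma on log2(FPKM + 1) and on log2(FPKM + 0.1) called 3 members each, beside 3076 and 3144 genes. Of the 3, 2 were raised and 1 (Mrpl2) was lowered. Scaling by library size alone called 1 raised and 1 lowered, beside 3272 genes. Removal of the length trend called 4 raised, beside 3476 genes, and omission of both libraries 2 raised, beside 2521. Fitting only the groups compared gave 1 member for the combination against PB-020, beside 1535 of 13268 genes. DESeq2 gave 1 for PB-020 given, beside 49 of 13563 genes. The causes were not tested. Same-numbered tumors did not deviate together (r from -0.21 to 0.29 over 18 pairs, 2 of them over 0.1), so the numbers were taken as names. With the replicate block, 6 members were called in the combination against CK and 1 for anti-PD-1 given, beside 2010 and 2711 of all genes. The median change of the members in the combination was then 0.054.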
